A study of Mus musculus with 34 samples.

Results

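App and the genes of the secretases that cut its protein make up a set of 9 genes, chosen by name: App, Bace1, Bace2, Adam10, Psen2, Ncstn, Psenen, Aph1a and Aph1b. They stand among 55385 genes in the count table, and all 9 passed the filter on low counts that left 17632 genes for testing. Poly-A RNA was sequenced from the cerebral cortex of 34 mice aged 6 months, 16 female and 18 male, with 1 library per mouse. Wild-type mice were C57BL/6J. Dp16 mice carry an extra copy of the stretch of mouse chromosome 16 between Lipi and Zbtb21, which is orthologous to much of human chromosome 21 and serves as a model of Down syndrome. 5xFAD mice carry human transgenes, among them an APP transgene, with familial Alzheimer's disease mutations. Thy1 regulatory sequences drive these transgenes mainly in neurons, and the mice develop amyloid plaques. 5xFAD-Dp16 mice carry both. Every mouse was gavaged daily for 1 month, either with tofacitinib, an inhibitor of JAK1 and JAK3, at 15 mg/kg, or with the sham vehicle, 0.5% methylcellulose. Sham groups held 5 wild-type, 3 Dp16, 4 5xFAD and 3 5xFAD-Dp16 mice. Tofacitinib groups held 5 wild-type, 5 Dp16, 5 5xFAD and 4 5xFAD-Dp16 mice.

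The App protein is a single-pass membrane protein that is cut in sequence. A first cut outside the membrane is made either by alpha secretase, in neurons chiefly Adam10, or by beta secretase, Bace1. The membrane stub is then cut by gamma secretase, a complex of a presenilin, nicastrin (Ncstn), an Aph1 subunit and the presenilin enhancer (Psenen). The alpha cut falls inside the amyloid beta sequence, while beta followed by gamma cutting releases amyloid beta, the peptide that forms plaques. Bace2, a relative of Bace1, also cuts inside that sequence. An extra copy of the human APP gene is sufficient for early-onset Alzheimer's disease, and App is in the segment that Dp16 mice carry in excess.

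In GRCm38, App (ENSMUSG00000022892.11) occupies chr16:84949685-85173766 on the minus strand, and Bace2 (ENSMUSG00000040605.7) occupies chr16:97356742-97442936 on the plus strand, 12.2 Mb away. Both lie in the duplicated segment, and the other 7 genes do not. Bace1 (ENSMUSG00000032086.12) is at chr9:45838580-45864399, Adam10 (ENSMUSG00000054693.14) at chr9:70678997-70780229 and Aph1b (ENSMUSG00000032375.15) at chr9:66775202-66795490. Psen2 (ENSMUSG00000010609.15) is at chr1:180227004-180263438 and Ncstn (ENSMUSG00000003458.12) at chr1:172066013-172082795. Psenen (ENSMUSG00000036835.7) is at chr7:30561863-30563627 and Aph1a (ENSMUSG00000015750.15) at chr3:95893969-95898288. Values are summed over all exons of a gene. On the opposite strand Bace1 overlaps Rnf214, Ncstn overlaps Copa, Psenen overlaps U2af1l4 and Aph1a overlaps Car14. The library kit keeps the strand, but whether counting used it is not given in the sources used here, so reads of such neighbours may be mixed. Aph1b and its near-identical copy Aph1c lie 19.5 kb apart, and the split of reads between them is uncertain.

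RefSeq promoter sequence was matched for 7 of the 9 genes. Those of App and Ncstn are shown because these genes deviated together from mouse to mouse with the highest Pearson's r of the 36 pairs of the set, given further on. The bases run 5′ to 3′ on the minus strand and end at the base before the gene's annotated start, at chr16:85173767-85173957 for App and chr1:172082796-172082999 for Ncstn (GRCm38.p6). Capitals mark CG pairs, the sites of DNA methylation in mammals.
App: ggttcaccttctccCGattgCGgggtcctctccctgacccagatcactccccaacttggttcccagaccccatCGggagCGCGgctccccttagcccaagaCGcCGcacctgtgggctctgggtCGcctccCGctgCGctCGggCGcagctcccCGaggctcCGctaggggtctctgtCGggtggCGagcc
Ncstn: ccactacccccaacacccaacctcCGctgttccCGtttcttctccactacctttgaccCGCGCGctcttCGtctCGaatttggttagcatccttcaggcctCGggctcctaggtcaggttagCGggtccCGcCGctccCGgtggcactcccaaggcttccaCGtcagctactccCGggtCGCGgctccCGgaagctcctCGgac
The 191 bases of App hold 16 CG pairs, and the same stretch holds as many in 14.2% of 32851 promoters, with a median of 4. The 204 bases of Ncstn hold 18, reached by 13.0% of promoters. Neither stretch holds the letters TATAAA or, for the other strand, TTTATA, which 8.78% of promoter stretches of App's length and 9.30% of those of Ncstn's length hold. Such matches describe letters in these windows.

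Libraries held 16029841 to 21388650 counts in genes. Within them App had 23077 to 54171 counts and Bace2 28 to 163, so counting error is far larger for Bace2. Levels given as CPM are counts scaled to the size of the library. Neuronal markers were high throughout, with 0 of 7 at 0 throughout any group and summed levels of 5902 to 8626 CPM in all but 5xFAD tofacitinib mouse 2, which had 4046. That library also had the highest sum of oligodendrocyte markers, at 13302 CPM against 5164 to 9133 in the others. On the second principal component of log2 CPM, with 8.60% of the variance, it lay at 48.0 and wild-type sham mouse 2 lay at the other end at -30.3, with the remaining libraries between -9.63 and 25.2. Thy1, used as a reading of the transgene label, was at 1427 to 2572 CPM in the 16 mice labelled 5xFAD and at 824 to 952 in the other 18.

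App was by far the most abundant transcript of the set per unit of length. Its mean was 239 RPKM (counts scaled to gene length and library size; SD 52.2, n = 34), 5.98 times that of Psenen, the small subunit that activates gamma secretase, at 40.1. Nicastrin, the subunit that receives substrates, averaged 18.4 RPKM, Adam10 17.7 and Bace1 14.7. Ncstn exceeded Adam10 in 20 of 34 libraries, so their order was not fixed, whereas Adam10 exceeded Bace1 in 34 of 34. A lower tier held Psen2, a presenilin gene, at 5.53 RPKM, Aph1a at 5.39 and Aph1b at 4.97. Psen2 exceeded Aph1a in 17 of 34 libraries and Aph1a exceeded Aph1b in 23, and their ranges overlapped. Bace2 came last at 0.693 RPKM, between 0.217 and 1.25, and lay below Aph1b in every library. Aph1c, the copy next to Aph1b, was at 1.23 RPKM.

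**Figure D1:**
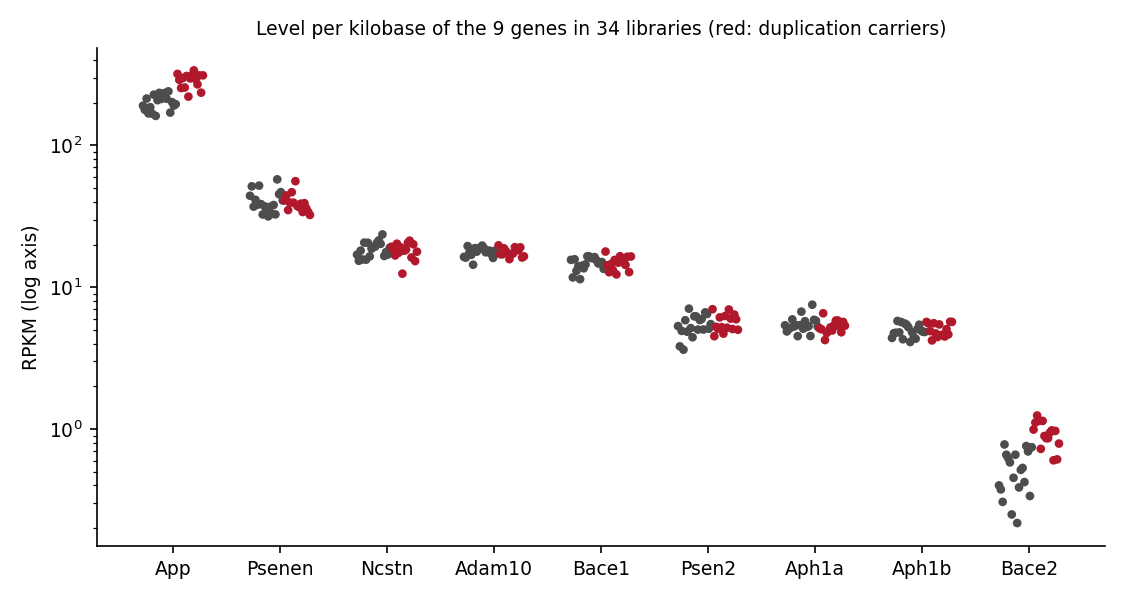
Level per kilobase (RPKM, log axis) of the 9 genes, 1 point per library, n = 34, with the 15 duplication carriers in red and the 19 non-carriers in grey. App, at a mean of 239 RPKM, stands above Psenen at 40.1, and Bace2, at 0.693, stands below all others.

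The first comparison asked how expression responds to an extra copy of a gene. App rose with the duplication in the fit averaged over both treatments and both 5xFAD states, and so did Bace2, the other member in the segment. The 7 members on other chromosomes had fitted log2 differences between -0.08 and 0.05 and did not pass. Fewer cells of a type and less RNA per cell cannot be told apart in such bulk samples, here and in what follows.

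Values follow in order of the labels' replicate numbers, which run 1, 2, 4, 5 and 6 in 5xFAD tofacitinib, 1, 2 and 4 in 5xFAD-Dp16 sham and without a gap elsewhere. In wild-type mice App was at 1570, 1485, 1760, 1385 and 1533 CPM under sham and at 1406, 1885, 1343, 1760 and 1978 CPM under tofacitinib. In 5xFAD mice it was at 1753, 1888, 1926 and 1726 CPM under sham and at 1987, 1258, 1603, 1528 and 1573 CPM under tofacitinib. These 19 mice without the duplication spanned 1258 to 1987 CPM, the lowest being 5xFAD tofacitinib mouse 2. In Dp16 mice App was at 2545, 2291 and 2055 CPM under sham and at 2447, 2087, 2488, 1845 and 2407 CPM under tofacitinib. In 5xFAD-Dp16 mice it was at 2550, 2788 and 2410 CPM under sham and at 2222, 2512, 1969 and 2576 CPM under tofacitinib. Of the 15 carriers, 13 lay above the highest non-carrier, and the exceptions were 1 Dp16 and 1 5xFAD-Dp16 mouse, both given tofacitinib.

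Averaged over the matched groups, App was at 2364 CPM in carriers and 1659 in non-carriers. The log2 difference was 0.50 (SE 0.0647, 95% interval 0.37 to 0.63), or 1.41-fold, with an edgeR adjusted p of 3.17e-06. Without wild-type sham mouse 2 and 5xFAD tofacitinib mouse 2 the log2 difference was 0.46 for App and, for Bace2 described next, 0.91. In CPM the duplication added 750 to the sham mean without 5xFAD and 759 with it, and 581 and 730 under tofacitinib. A difference of the duplication effect on log2 App between mice with and without 5xFAD was not detected (interaction 0.02, 95% interval -0.23 to 0.28, edgeR adjusted p = 0.998), nor one between tofacitinib and sham (-0.04, interval -0.29 to 0.22, adjusted p = 1.00). For both interactions 0 of 9 members passed with edgeR, DESeq2 or limma-voom and 0 had an unadjusted p below 0.05, beside 0.00567% and 0% of all genes called by edgeR.

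Bace2 also rose with the duplication, from a far lower level per length. Its averaged log2 difference was above that of App, with overlapping intervals, and the difference between the genes was not tested. In 5xFAD-Dp16 against 5xFAD under tofacitinib it was below that of App, at 0.40 against 0.54. In wild-type mice it was at 3.09, 2.93, 2.36, 6.00 and 5.08 CPM under sham and at 4.92, 4.50, 1.94, 3.58 and 5.20 CPM under tofacitinib. In 5xFAD mice it was at 1.68, 3.01, 3.96 and 4.03 CPM under sham and at 3.27, 5.25, 5.17, 2.53 and 5.61 CPM under tofacitinib. No mouse without the duplication exceeded 6.00 CPM, the value of wild-type sham mouse 4. In Dp16 mice Bace2 was at 7.40, 8.22 and 9.44 CPM under sham and at 8.77, 5.53, 8.61, 6.99 and 6.55 CPM under tofacitinib. In 5xFAD-Dp16 mice it was at 6.59, 7.28 and 7.52 CPM under sham and at 4.65, 7.32, 4.78 and 6.11 CPM under tofacitinib. The 6 sham carriers, from 6.59 to 9.44 CPM, all lay above the 19 non-carriers, and 3 of the 9 tofacitinib carriers did not. Averaged over the matched groups, Bace2 was at 7.12 CPM in carriers and 3.86 in non-carriers, with a log2 difference of 0.90 (SE 0.147, interval 0.60 to 1.20), or 1.87-fold, and an edgeR adjusted p of 0.000188. The fitted duplication effect was smaller under tofacitinib by 0.53 on the log2 scale, with an interval from -1.12 to 0.05 and an adjusted p of 1.00.

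**Figure D2:**
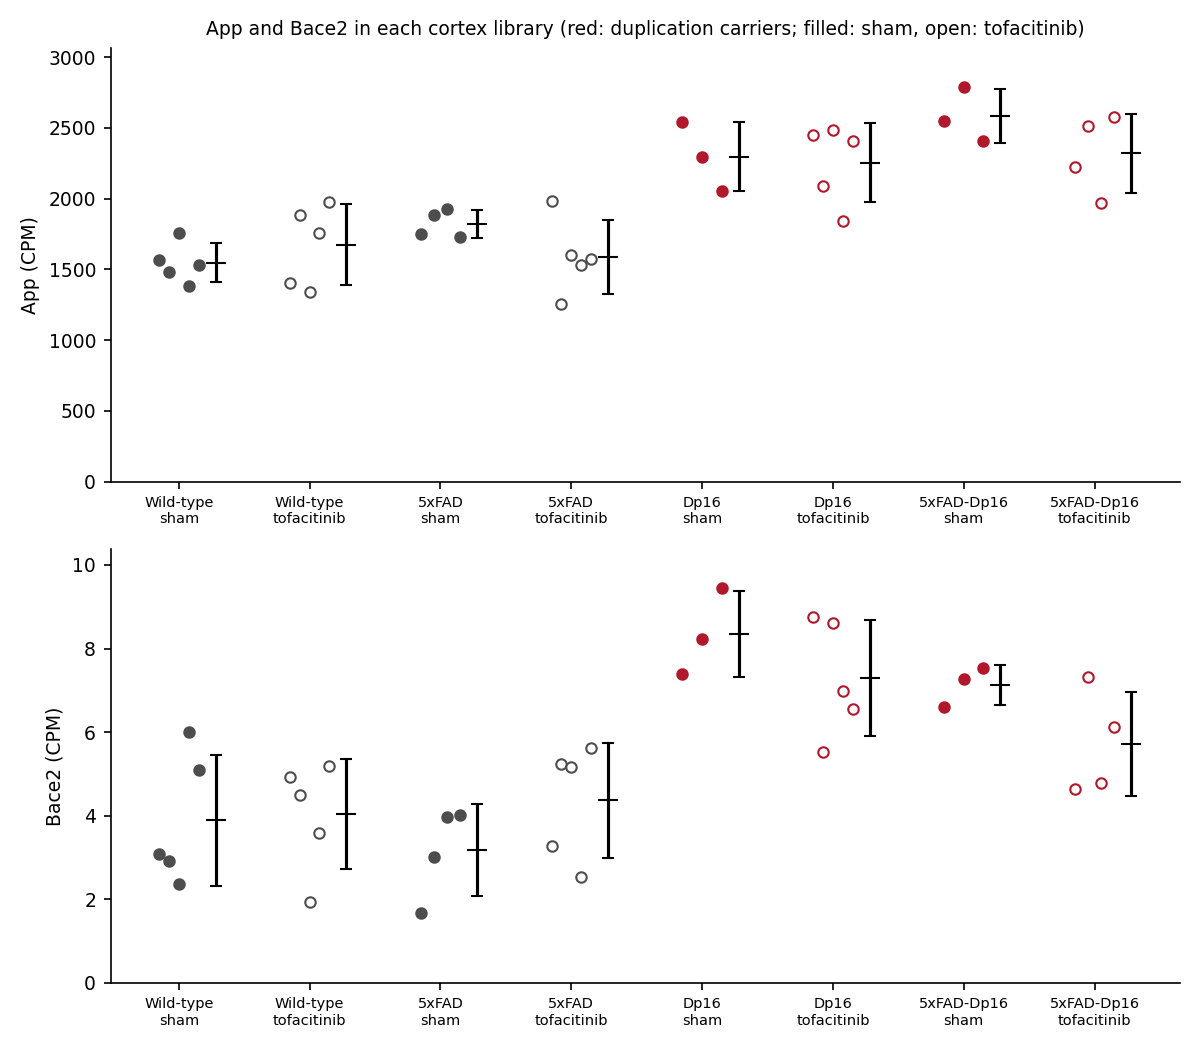
App (top) and Bace2 (bottom) in CPM by group, 1 point per mouse, with the group mean and SD beside the points, carriers of the duplication in red, sham filled and tofacitinib open. App carriers lie between 1845 and 2788 CPM and non-carriers between 1258 and 1987, and for Bace2 the ranges are 4.65 to 9.44 and 1.68 to 6.00.

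Thus 2 of the 9 genes passed the threshold with the duplication, both higher and both in the segment, against 2.12% of all 17632 genes tested, or 1.16% called higher. The segment holds 384 listed genes, of which 106 were tested. Of the 104 besides App and Bace2, 68 were called higher and 0 lower by edgeR, with a median of 1.46-fold and a middle 50% of 1.37 to 1.57. App, at 1.41-fold, ranked 72 of 106 from the highest, and Bace2, at 1.87-fold, ranked 6. Relative to the wild-type sham mean, the median segment gene was at 1.38 to 1.501 in each of the 15 carriers and at 0.918 to 1.04 in the non-carriers. The same ratio for App ran from 1.19, in Dp16 tofacitinib mouse 4, to 1.80, in 5xFAD-Dp16 sham mouse 2, and for Bace2 from 1.19 to 2.43. A median over 85 genes varies less than a single gene, so the width of these ranges is not compared.

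Among the order of the App group means, 5xFAD-Dp16 sham was highest at 2582 ± 191 CPM (SD, n = 3), followed by 5xFAD-Dp16 tofacitinib at 2320 ± 280 (n = 4), Dp16 sham at 2297 ± 245 (n = 3) and Dp16 tofacitinib at 2255 ± 279 (n = 5). Next came 5xFAD sham at 1823 ± 98.5 (n = 4), wild-type tofacitinib at 1674 ± 286 (n = 5), 5xFAD tofacitinib at 1590 ± 261 (n = 5) and wild-type sham at 1547 ± 138 (n = 5). Of neighbours in this order, the lowest carrier group and the highest non-carrier group were separated by more than the larger of their SDs. The gap between 5xFAD-Dp16 sham and the next group, 263 CPM, was within it, as were the other gaps. For Bace2 the order was led by Dp16 sham at 8.35 ± 1.03 CPM (n = 3) and ended with 5xFAD sham at 3.17 ± 1.10 (n = 4).

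Single pairs of groups hold 3 to 5 mice on a side, and fewer of them passed. App passed in 5xFAD-Dp16 against wild-type sham, with a log2 difference of 0.72 (SE 0.130, edgeR adjusted p = 0.00243), where 1 of 9 members and 0.363% of all genes were called. App also passed in 5xFAD-Dp16 against 5xFAD under tofacitinib, at 0.54 (SE 0.120, adjusted p = 0.0362), again 1 of 9 against 0.238%. The latter call was lost, at adjusted p up to 0.178, on leaving out any of 7 mice: 5xFAD tofacitinib 2, 4, 5 or 6, or 5xFAD-Dp16 tofacitinib 1, 2 or 4. It was also lost with the replicate block (adjusted p = 0.127). Fitted with the mice of these 2 groups alone, its adjusted p was 0.643, and without wild-type sham mouse 2 and 5xFAD tofacitinib mouse 2 it was 0.103. Dp16 against wild-type gave 0.56 for App under sham and 0.42 under tofacitinib (SE 0.130 and 0.114), with edgeR adjusted p = 0.0703 and 0.176. In 5xFAD-Dp16 against 5xFAD under sham the difference was 0.48 (SE 0.139), with adjusted p = 0.453. In these 3 comparisons edgeR called 0 of 9 members, beside 0.21%, 0.255% and 0.102% of all genes, while 2 of 9, App and Bace2, had an unadjusted p below 0.05 in each. DESeq2 called 2, 0 and 1 of the 9 there, and limma-voom 1, 1 and 2. Over all genes 7.16%, 8.35% and 3.74% had an unadjusted p below 0.05, DESeq2 called 0.357%, 0.425% and 0.216%, and limma-voom 0.340%, 0.834% and 0.510%. In 5xFAD-Dp16 against wild-type under tofacitinib App differed by 0.46 (SE 0.120, edgeR adjusted p = 0.0960), with 0 of 9 called beside 0.306% of all genes, 1 with an unadjusted p below 0.05, and App called by both DESeq2 and limma-voom, which called 0.715% and 1.11% of all genes. Bace2 differed by 1.13 in Dp16 against wild-type under sham and by 0.87 under tofacitinib (edgeR adjusted p = 0.158 and 0.247). It differed by 1.21 in 5xFAD-Dp16 against 5xFAD under sham and by 0.40 under tofacitinib (edgeR adjusted p = 0.250 and 0.792). Adding 5xFAD to Dp16 gave App differences of 0.17 under sham and 0.05 under tofacitinib, with 0 of 9 members called by edgeR, DESeq2 or limma-voom beside 0.00567% of all genes in each, and 0 and 1 with an unadjusted p below 0.05. Where App passed by edgeR, DESeq2 and limma-voom called App alone. There 3 of 9 members (App, Bace2 and Psen2) had an unadjusted p below 0.05 against wild-type under sham. Against 5xFAD under tofacitinib 2 of 9 did, App and Psenen. The 1 member with such a p against Dp16 under tofacitinib was Psenen. Bace2 differed by 0.90 against wild-type under sham (edgeR adjusted p = 0.210). Shares of all genes with such a p are not given here for these comparisons. All the comparisons of single pairs share mice with one another and with the averaged fit, so they are not separate evidence.

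The second question was whether the secretase genes and App differ in mice that carry the 5xFAD transgenes. In the averaged fit 0 of 9 members passed, beside 0.431% of all genes, and 0 of 9 had an unadjusted p below 0.05 or passed with DESeq2 or limma-voom. App was at 2079 CPM with 5xFAD and 1943 without, a log2 difference of 0.10 (95% interval -0.03 to 0.22, edgeR adjusted p = 0.393). Bace1, the beta secretase, differed by 0.10 (interval -0.01 to 0.21), and Adam10, the alpha secretase, by 0.02 (interval -0.07 to 0.10). Among the gamma secretase genes Psen2 differed by 0.12 (interval -0.04 to 0.27), Ncstn by 0.10 (interval -0.03 to 0.23) and Psenen by -0.14 (interval -0.28 to 0.00). Aph1a differed by 0.05, Aph1b by -0.10 and Bace2 by -0.20, the last with an interval from -0.49 to 0.10. The intervals for App and Bace1 include rises of up to 0.22 and 0.21.

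**Figure D3:**
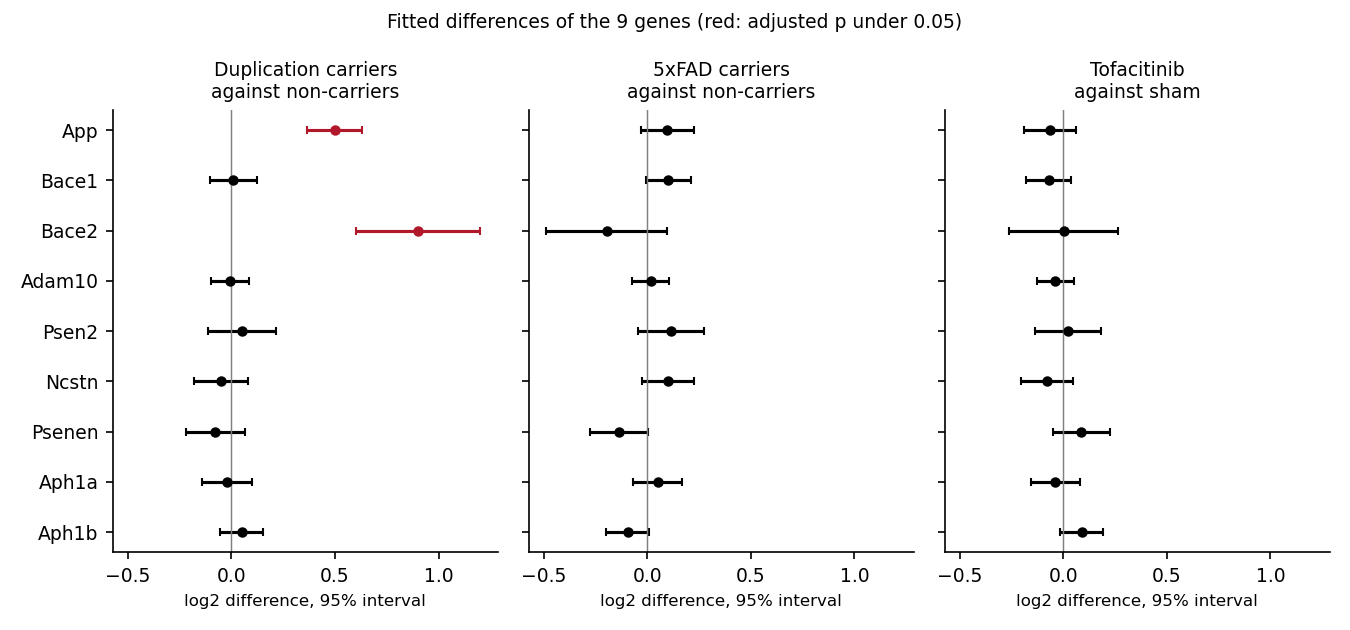
Fitted log2 differences with 95% intervals for the 9 genes, averaged over matched groups, for the duplication (left), 5xFAD (middle) and tofacitinib (right), with edgeR calls in red. App at 0.50 and Bace2 at 0.90 are the calls, both with the duplication.

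Under sham App was higher in 5xFAD than in wild-type by 277 CPM, or 0.25 on the log2 scale (SE 0.120, edgeR adjusted p = 0.201), and under tofacitinib it was lower by 84.5 CPM (log2 difference -0.08, SE 0.113). With edgeR 0 of 9 members passed in either, beside 0.00567% and 0.0113% of all genes. Under sham 2 of 9, App and Psenen, had an unadjusted p below 0.05, DESeq2 called 0 and limma-voom called App, and under tofacitinib all 3 of these counts were 0. Under sham 24.7% of all genes had an unadjusted p below 0.05, DESeq2 called 1587 of the 17632 genes and limma-voom called 14.2%, so these counts of members are near or below the shares over all genes. The 4 sham 5xFAD mice, at 1726 to 1926 CPM, overlapped the highest wild-type sham mouse at 1760. The difference of these effects, the 5xFAD by tofacitinib interaction, was -0.22 for App (SE 0.125, edgeR adjusted p = 0.390) and -0.22 for Ncstn (SE 0.124, adjusted p = 0.390). edgeR and DESeq2 called 0 of 9 members for it, beside 0% of all genes with edgeR and 0 of 9 with an unadjusted p below 0.05, and limma-voom called App (-0.28, adjusted p = 0.0242) and Ncstn (-0.28, adjusted p = 0.0446). limma-voom called 19.9% of all genes for this interaction, so 2 of 9 members is near its share over all genes. With the trend on gene length removed, described below, the sham difference of App was 0.07 and the interaction -0.09. Reads of the human APP transgene can align to mouse App where the sequences match. Their part in App counts of 5xFAD mice was not tested.

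Thy1, whose sequences drive the transgenes, allowed App to be set against the transgene reading within each genotype, a family of 4 relations. In the 9 5xFAD mice Pearson's r of log2 CPM was 0.73 (exact permutation p = 0.0229, adjusted p = 0.0858) and Spearman's rho 0.82 (exact permutation p = 0.0108, adjusted p = 0.0432). Without the 2 mice farthest from the Thy1 median r was 0.72. Without 5xFAD tofacitinib mouse 2 the r was 0.67 (n = 8, exact permutation p = 0.0751, adjusted p = 0.150) and rho 0.74 (exact permutation p = 0.0458, adjusted p = 0.115), past no threshold after adjustment. The rho was 0.60 with log2 RPKM (exact permutation p = 0.0968, adjusted p = 0.129) and 0.60 with deviations from the treatment mean (exact permutation p = 0.0968, adjusted p = 0.147), so the call was lost there too. In the 7 5xFAD-Dp16 mice r was 0.79 (exact permutation p = 0.0429, adjusted p = 0.0858) and rho 0.64 (exact permutation p = 0.139, adjusted p = 0.185), but r was -0.09 without the 2 farthest mice, so the relation rests on them. In the 10 wild-type mice, which have no transgene, r was 0.32 (permutation p = 0.364) and rho 0.35 (p = 0.330), and r was 0.24 without the 2 farthest. The 8 Dp16 mice have no transgene either. In them r was 0.58 (exact permutation p = 0.138), rho was 0.71 (exact permutation p = 0.0576) and r was 0.95 without the 2 farthest. With log2 RPKM r was 0.28 in wild-type, 0.68 in Dp16, 0.64 in 5xFAD and 0.80 in 5xFAD-Dp16 mice. The difference of r between genotypes was not tested. Sex was not a term in these relations, and its part was not tested. In 5xFAD-Dp16 mice Thy1 was at 1963 and 2420 CPM in sham females and 1918 in the sham male. Under tofacitinib it was at 1862 and 1941 CPM in females and 1575 and 1727 in males. In 5xFAD mice the highest and the lowest Thy1 were both in females. App also followed the libraries' trend on gene length, described below, and none of these settings removed it. Among the 5xFAD mice tofacitinib mouse 1 had the highest Thy1, 2572 CPM, and the highest value of that trend, 0.50. Tofacitinib mouse 2 had the lowest of both, 1427 CPM and -0.32, while sham mouse 1, at 2280 CPM, had -0.05. The part of the length trend in these relations was not tested.

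The remaining 7 genes can be described group by group. Bace1 means lay between 85.5 ± 7.05 CPM (SD, n = 5) in Dp16 tofacitinib and 98.8 ± 1.499 (n = 4) in 5xFAD sham. Adam10, with the lowest median within-group coefficient of variation of the set, 7.04%, lay between 77.5 ± 5.79 CPM in 5xFAD tofacitinib (n = 5) and 85.5 ± 4.88 in 5xFAD sham (n = 4). Their ranges overlapped in each of the averaged comparisons. Ncstn means ran from 50.7 ± 5.39 CPM in 5xFAD-Dp16 tofacitinib (n = 4) to 59.5 ± 2.61 in 5xFAD sham (n = 4). Psenen had its lowest mean where Ncstn had its highest, and ran from 28.8 ± 2.44 CPM in 5xFAD sham (n = 4) to 36.2 ± 6.80 in Dp16 tofacitinib (n = 5). In 5xFAD against wild-type sham Psenen differed by -0.27 (SE 0.132, unadjusted p = 0.0488, edgeR adjusted p = 0.200). Psen2 means ran from 10.8 ± 2.18 CPM in wild-type sham (n = 5) to 13.9 ± 2.11 in 5xFAD-Dp16 sham (n = 3). Aph1a means ran from 13.8 ± 1.10 CPM in Dp16 tofacitinib (n = 5) to 16.3 ± 0.786 in 5xFAD-Dp16 sham (n = 3). Aph1b means ran from 21.8 ± 1.58 CPM in 5xFAD sham (n = 4) to 26.4 ± 2.92 in wild-type tofacitinib (n = 5). None of these 7 genes passed in any of the 20 comparisons fitted with edgeR.

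**Figure D4:**
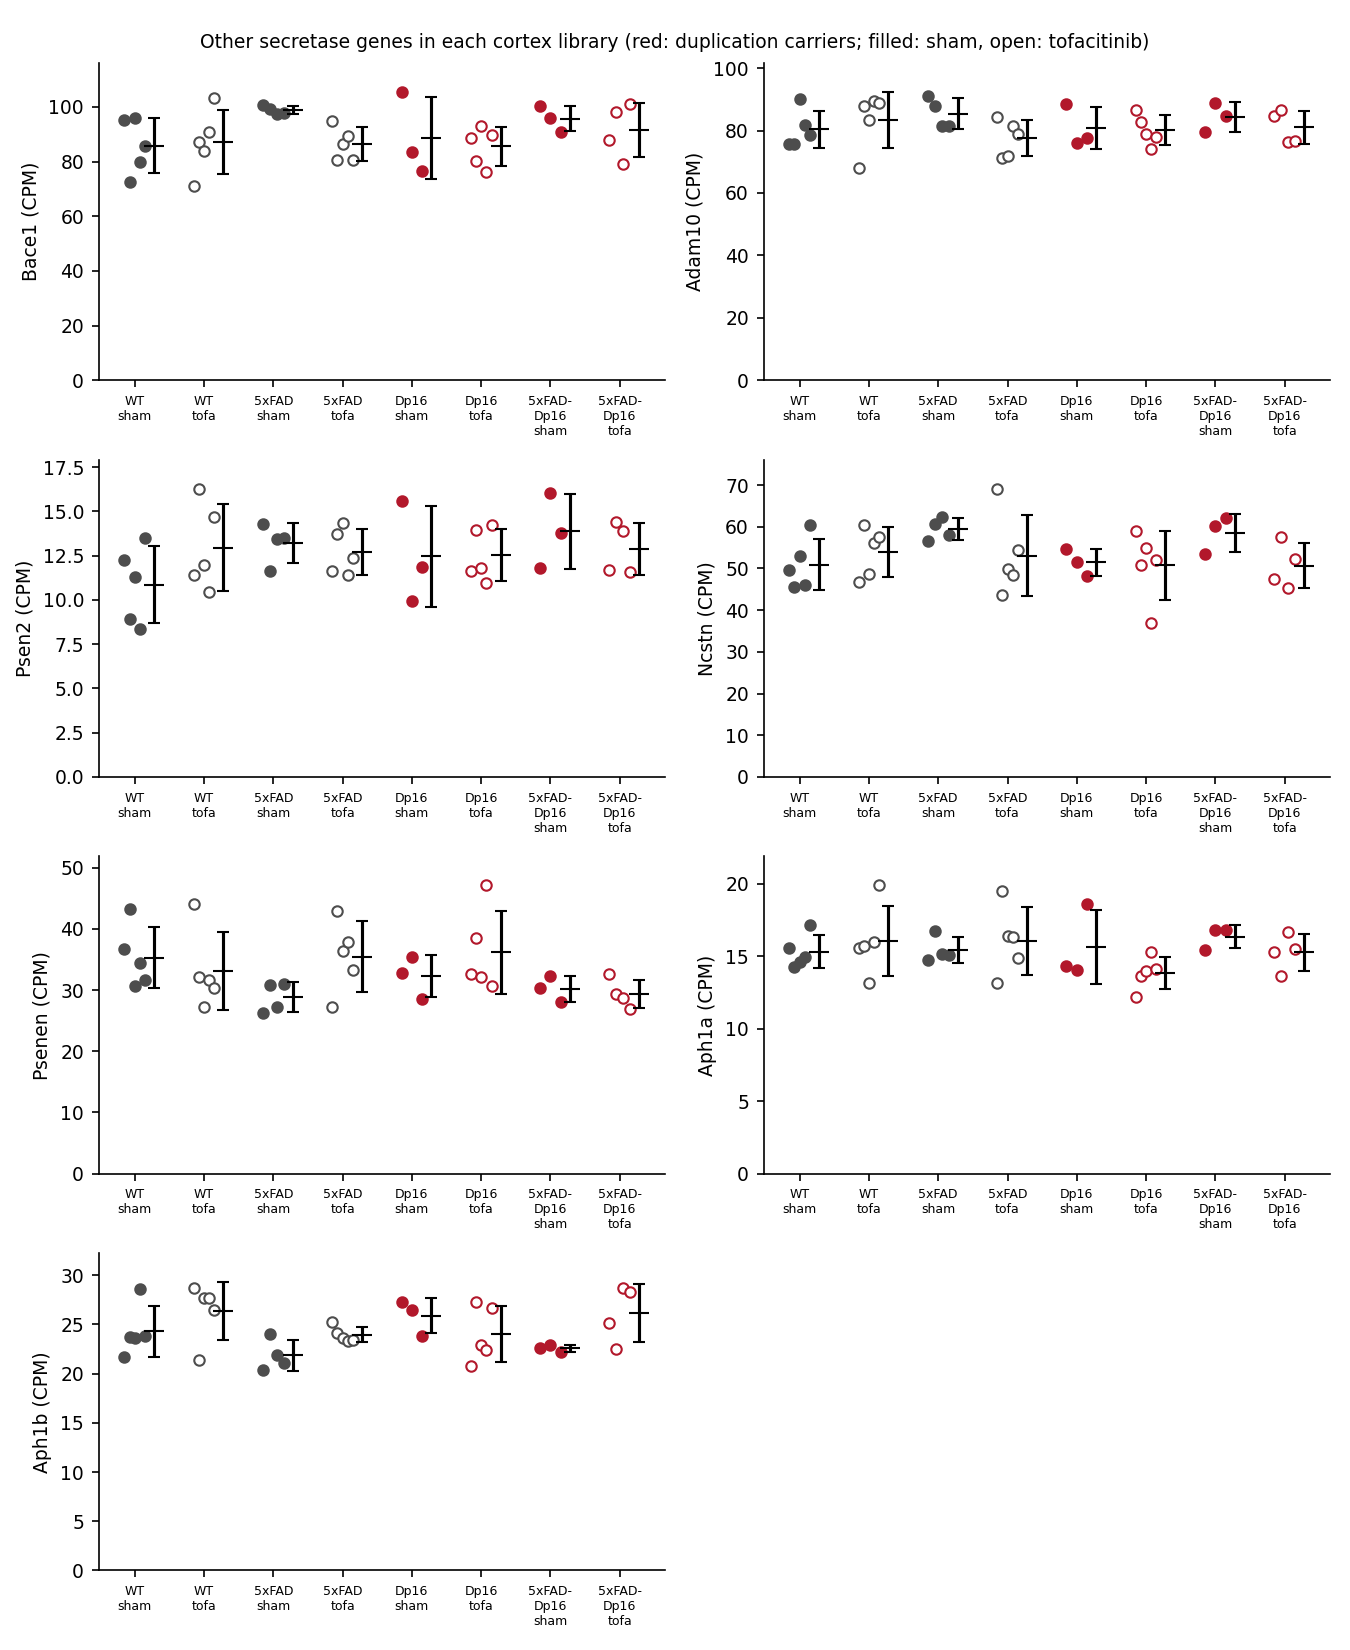
The 7 members outside the duplicated segment in CPM by group, 1 point per mouse, with the group mean and SD beside the points (WT, wild-type; tofa, tofacitinib; carriers of the duplication in red; sham filled, tofacitinib open). Carriers and non-carriers overlap in every panel, as for Bace1 at 76.3 to 106 CPM against 71.0 to 103.

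The third question was the effect of tofacitinib. Averaged over the 4 genotypes edgeR called 0 of 9 members and 0% of all genes, and 0 of 9 had an unadjusted p below 0.05 or passed with DESeq2 or limma-voom. App differed by -0.06 (95% interval -0.19 to 0.06), Bace2 by 0.00 (interval -0.26 to 0.27), Bace1 by -0.07 (interval -0.18 to 0.04) and Adam10 by -0.04 (interval -0.13 to 0.05). Psenen and Aph1b had the highest estimates, both 0.09, with intervals from -0.05 to 0.22 and -0.02 to 0.19. Within genotypes App differed by 0.11 in wild-type, -0.02 in Dp16, -0.21 in 5xFAD and -0.15 in 5xFAD-Dp16 mice (SE 0.113, 0.130, 0.120 and 0.137). In each, 0 of 9 members were called by edgeR, DESeq2 or limma-voom, beside 0% of all genes with edgeR. Psenen in 5xFAD had an unadjusted p of 0.0386 (log2 difference 0.28, edgeR adjusted p = 0.331), as 14.7% of all genes had one below 0.05 there, and it was the member with an unadjusted p below 0.05 in these 4 comparisons.

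Mouse-to-mouse variation of App within groups followed a property of the library. For each library the deviation of every gene from its group mean was set against gene length, over genes of at least 1 CPM, and Spearman's rho of that trend ran from -0.48 to 0.50. App's own deviation rose with this value (Pearson's r 0.90, Spearman's rho 0.90, n = 34, each permutation p = 1e-05, the smallest that 100000 resamples can give, adjusted p = 2.25e-05 over 9 relations). Without the 2 libraries farthest from the median r was 0.88. Bace1 followed it with r = 0.83, Ncstn with 0.79 and Adam10 with 0.71 (each permutation p = 1e-05, adjusted p = 2.25e-05), and Spearman's rho was 0.86, 0.82 and 0.76. Psenen, with 823 bases the shortest of the set, ran opposite at r = -0.58 (permutation p = 0.00039, adjusted p = 0.000702, rho -0.55). Without the 2 farthest libraries r was 0.82 for Bace1, 0.77 for Ncstn, 0.66 for Adam10 and -0.50 for Psenen. The r was -0.03 for Bace2, 0.30 for Psen2, -0.20 for Aph1a and -0.13 for Aph1b, with permutation p from 0.0806 to 0.85. By Spearman's rho Psen2 did pass, at 0.37 (permutation p = 0.0314, adjusted p = 0.0471). App, the longest member at 8167 bases, had the highest r and Psenen the lowest, but length did not order the members between them. Ncstn (2901 bases) and Aph1a (2863 bases) had r of 0.79 and -0.20. Bace2 (7646 bases) and Aph1b (4910 bases) had -0.03 and -0.13. Each library's own App count enters its trend as 1 gene of 14475. Summed neuronal markers differed between libraries too. In 5xFAD tofacitinib mice 1 and 2 they were at 8061 and 4046 CPM, with App deviations of 0.34 and -0.32. In wild-type sham mice 1 and 2 they were at 6858 and 7641 CPM, with App deviations of 0.03 and -0.05. The part of neuronal content in App's deviations and in the length trend was not tested.

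**Figure D5:**
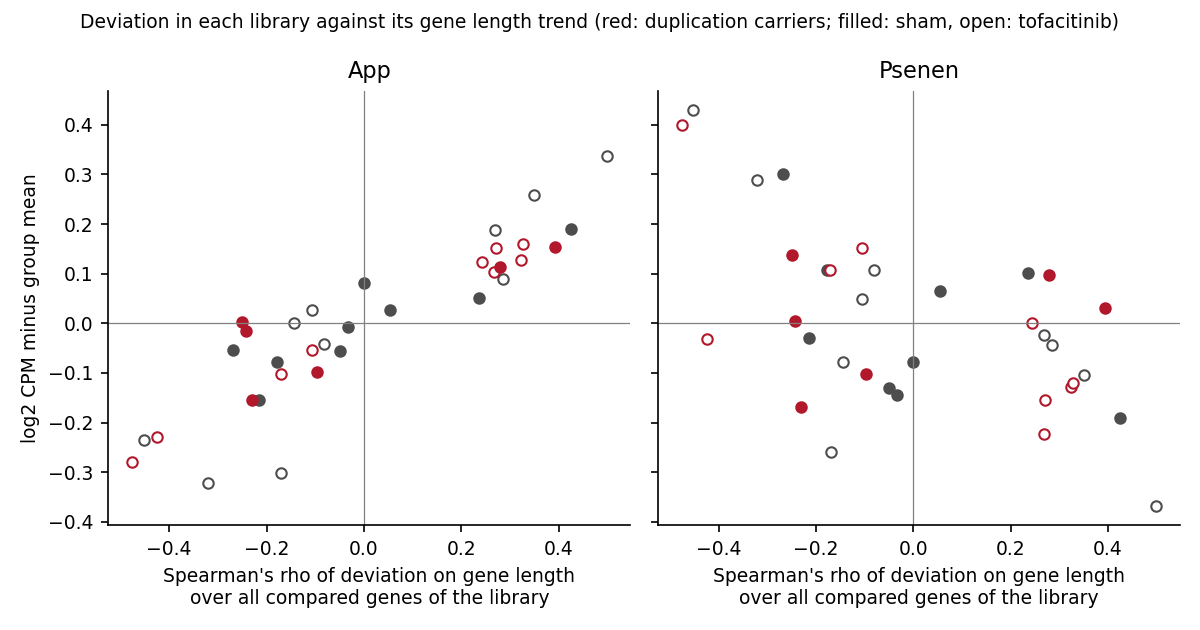
Deviation of App (left) and Psenen (right) from the group mean of log2 CPM, against Spearman's rho of all genes' deviations on gene length in the same library, 1 point per mouse. App rises along the axis (r = 0.90) and Psenen falls (r = -0.58), in carriers (red) and non-carriers (grey) alike.

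When a smooth trend on gene length was removed from each library, the median within-group coefficient of variation of App fell from 11.4% to 6.11%, that of Bace1 from 9.55% to 6.01% and that of Psenen from 12.4% to 9.81%. That of Bace2 was 26.7% before and 25.9% after, while that of Psen2 rose from 13.5% to 15.5% and that of Aph1b from 8.91% to 9.26%. The averaged duplication effect then was 0.49 for App (SE 0.0427, edgeR adjusted p = 2.88e-10) and 0.88 for Bace2 (SE 0.149, adjusted p = 0.000255). App then also passed in Dp16 against wild-type under sham (0.53, adjusted p = 0.000596) and tofacitinib (0.50, adjusted p = 0.000145), in 5xFAD-Dp16 against 5xFAD under sham (0.48, adjusted p = 0.00659) and in 5xFAD-Dp16 against wild-type under tofacitinib (0.43, adjusted p = 0.00303). The 5xFAD difference of App averaged over groups was then 0.00 (SE 0.0416). Psenen had -0.17 with the duplication (SE 0.0534, adjusted p = 0.0582), compared with -0.08 before. The step also moved the calls of the whole table, from 374 with 54.8% higher to 771 with 25.9% higher for the duplication. Shares of all genes called in the single pairs of groups with the trend removed are not given here. App's added calls in those pairs are therefore not set against them.

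The gene whose within-group deviations were most like those of App over the 34 libraries was Aplp2, a paralog of App, with Pearson's r of 0.96, of 14474 genes compared. Libraries share their length trend across genes, and no test is attached to these values. Over log2 CPM itself, where the duplication enters, the genes most like App were Synj1 (0.97), Dscam (0.96) and Dyrk1a (0.94), all 3 in the duplicated segment. For Bace2 they were Rwdd2b (0.81), Ifnar2 (0.78) and Rbm11 (0.75), again in the segment. Within groups Bace2 was most like Tmem74b (0.77) and Acy1 (0.69). The closest partners of the others had r of 0.87 for Bace1 (Nedd4 and Nipal3), 0.89 for Ncstn (Zc3h4 and Slc7a8), 0.84 for Adam10 (Tent4b and Igf1r), and 0.85 and 0.83 for Psenen (Yme1l1 and Fn3k). They were lower for Psen2, at 0.71 (Zfp790), for Aph1a, at 0.73 and 0.66 (Klk6 and Gm35558), and for Aph1b, at 0.67 and 0.63 (Gm10767 and Fes). Within the set, App and Ncstn deviated together with r = 0.82 and App and Bace1 with 0.77, while Ncstn and Psenen had r = -0.67 and App and Bace2 0.08.

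The wider pathway was described by 46 genes in 8 lists, all of which were tested. With the duplication 0 of 46 were called by edgeR and by DESeq2, beside 2.12% of all genes with edgeR, 8 had an unadjusted p below 0.05 and limma-voom called 6, where 13.6% of all genes had such a p and limma-voom called 6.60%. The median log2 difference of the 46 was 0.00, as it was over all genes, and 22 of 46 lay above 0 beside 51.3% of all genes. The App paralogs Aplp1 and Aplp2, on other chromosomes, differed by -0.10 each (edgeR adjusted p = 0.289 and 0.517). Among inhibitors and partners of Adam10, Tspan5 differed by 0.01 and the metalloprotease inhibitor Timp3 by 0.01. With the length trend removed, edgeR called Adam9, another alpha-type sheddase, lower (-0.15, adjusted p = 0.0315), where it had -0.13 and 0.115 before. Single markers of other cell types were lower with the duplication too. P2ry12, a microglial receptor, was at 42.7 against 49.7 CPM (edgeR adjusted p = 0.0381). Cnp, a myelin enzyme, was at 309 against 373 CPM (edgeR adjusted p = 0.0393). Each was the 1 marker called of the 5 in its list. Of the microglial markers 1 of 5 lay above 0, and of the oligodendrocyte markers 0 of 5, beside 51.3% of all genes. Lists without a call were low too: 1 of 7 neuronal (median log2 difference -0.02), 0 of 3 mural and 0 of 5 striatal markers lay above 0. Endothelial markers had 1 of 3 above 0, oligodendrocyte precursor markers 1 of 2 and astrocyte markers 3 of 5. Summed microglial markers, 5 of 5 detected, spanned 191 to 273 CPM in carriers and 200 to 305 in non-carriers, and summed oligodendrocyte markers spanned 5164 to 9133 and 5459 to 13302. Summed striatal markers, a reading of the dissection, spanned 167 to 793 CPM in carriers (median 357) and 253 to 1076 in non-carriers (median 628). Their part in the results above was not tested.

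With 5xFAD 1 of 46 pathway genes rose by edgeR, beside 0.431% of all genes called, and 14 had an unadjusted p below 0.05, as 20.2% of all genes did. Ctsd, the lysosomal protease cathepsin D, which can degrade amyloid beta, was at 305 CPM with 5xFAD and 246 without (log2 difference 0.31, SE 0.0591, 1.24-fold, edgeR adjusted p = 0.0103). DESeq2 called Ctsd and Notch2, a receptor that Adam10 and gamma secretase cut, and limma-voom called Ctsd and Gsap, a gamma secretase activating protein, where DESeq2 called 3.33% and limma-voom 2.61% of all genes. Notch2 was at 18.3 against 14.2 CPM (log2 difference 0.37, edgeR adjusted p = 0.0660) and Gsap at 5.17 against 6.31 CPM (-0.30, adjusted p = 0.108). In the averaged fit 34 of 46 pathway genes lay above 0, with a median log2 difference of 0.08, beside 50.7% and 0.00 over all genes. By treatment, against wild-type 36 of 46 lay above 0 under sham (median 0.18), beside 51.5% of all genes. Under tofacitinib 18 of 46 did (median -0.04), beside 48.3%. edgeR called 0 in either or in their interaction. In the order sham, tofacitinib and interaction, 20, 6 and 7 had an unadjusted p below 0.05, DESeq2 called 5, 0 and 0 and limma-voom 11, 1 and 14. Shares over all genes for the sham counts, and limma-voom's share for the interaction, are given above with the 9 members. Shares for the other counts at an unadjusted p, and for limma-voom under tofacitinib, are not given here. Those counts are therefore not read as a result about the pathway genes. In the averaged fit 9 of 9 substrates of the secretases lay above 0 (median 0.20), 0 called by edgeR and 5 at an unadjusted p below 0.05. Against wild-type 9 of 9 lay above 0 under sham (median 0.43) and 2 of 9 under tofacitinib (median -0.05). For the interaction 0 of 9 lay above 0 (median -0.22), beside 50.0% of all genes. In the order sham, tofacitinib and interaction, DESeq2 called 3, 0 and 0 of 9, and limma-voom 4, 0 and 4. With the length trend removed edgeR called 1 of 9 under sham, Notch1, and 0 for the interaction. How far the length trend enters these medians was not tested. Of the gamma secretase associated genes 0 of 4 lay above 0 with 5xFAD averaged (median -0.06). Among the substrates Sez6l2, a Bace1 substrate, was at 327 against 283 CPM (0.20, adjusted p = 0.129), and Sez6l, likewise a Bace1 substrate, was at 193 against 170 CPM (0.18, adjusted p = 0.253). Of the other enzymes that can degrade amyloid beta, Ctsb, cathepsin B, differed by 0.05 and Ece1, endothelin converting enzyme, by 0.06. In the sorting list 6 of 7 lay above 0 with a median of 0.12 and 0 called by edgeR, where 3 had an unadjusted p below 0.05. There Rtn3, a reticulon that binds Bace1, differed by 0.07 and Sort1, a sorting receptor, by 0.16 (edgeR adjusted p = 0.349 and 0.244). Itm2b and Itm2c, membrane proteins that bind App, differed by -0.07 and -0.01. Plaque-associated microglial markers moved with the same contrast: 4 of 5 rose (Cst7, Clec7a, Itgax and Cd68), and their summed level was 37.8 to 115 CPM with 5xFAD and 28.1 to 52.9 without. Their part in the Ctsd difference was not tested. With tofacitinib 0 of 46 passed by edgeR, DESeq2 or limma-voom, and 0 had an unadjusted p below 0.05.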

How the data were processed

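Gene counts and RPKM values were deposited by the authors for poly-A RNA of 34 mouse cortices, 1 library per mouse. Per the labels' protocols, RNA was extracted with TRIzol, and strand-specific libraries were sequenced as paired reads of 150 bases. The submitters' processing notes list FastQC 0.11.5, HISAT2 2.1.0, SAMtools 1.5, HTSeq 0.6.1 and the GRCm38 build, without roles, and the strand setting of the counting is not given in the sources used here. The deposited RPKM values were recomputed from the deposited counts and gene lengths and differed by at most 7.13e-14 of the value. The design text states 6 5xFAD tofacitinib and 4 5xFAD-Dp16 sham mice, of which 5 and 3 were analysed here.

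Counts of 17632 genes that passed filterByExpr were fitted in R 4.3.3 with edgeR 4.0.16. TMM scaling and a quasi-likelihood test with robust estimation of the spread were used over all 34 libraries, with 8 groups and sex as terms. Benjamini-Hochberg adjustment ran over all genes, and calls were made at an adjusted p under 0.05. The robust option follows an earlier processing of these data and is not part of the design written down for this work. Averaged comparisons weight the matched groups equally. Their mean CPM values are means of group means. DESeq2 1.42.0 and limma-voom (limma 3.58.1) with sample weights were alternatives. Descriptions used Python 3.11.15 with SciPy 1.17.1 and NumPy 2.4.6. The fitting steps were tested on simulated data. Members and gene lists were chosen with earlier results of these data known. The text names all 9 members and, per pathway list, up to 4 genes that passed and up to 2 others with the highest mean CPM, and for each member up to 2 genes most like it within groups (some are not reported here), or for App and Bace2 also the 3 most like it in log2 CPM. Notch2 and Gsap were named after their values were seen, as calls of other tools. App and Thy1 were also related with log2 RPKM, with deviations from the treatment mean and without the libraries that stood apart. Replicate numbers were not found to pair mice.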

Additional observations from a re-analysis of the deposited data

How the results depend on the processing

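With the duplication both App and Bace2 passed in every other setting run for it and on leaving out each of 34 libraries in turn. App lay between 0.46 and 0.51 and Bace2 between 0.88 and 0.92 (log2), or 0.47 to 0.53 and 0.83 to 0.94 with 1 library left out. Of 20 counts of members called, 12 stayed the same in every setting. No direction reversed among the single members' differences that some setting called. Estimates called in no setting did change sign. With the length trend removed Psenen differed by -0.008 with tofacitinib, averaged, and Adam10 by -0.03 with 5xFAD, averaged, where the main estimates were positive. The cause of the changes between settings was not tested. For the 5xFAD by tofacitinib interaction limma-voom called 2 members in place of 0, and for 5xFAD against wild-type under sham it called 1 in place of 0. For Dp16 against wild-type under sham the count of 0 became 2 with DESeq2 or no filter on low counts, and 1 with limma-voom, without the sex term or with the length trend removed. Without 1 library it ranged from 0 to 1, the 1 being reached without wild-type sham 3, wild-type tofacitinib 1 or 3, 5xFAD tofacitinib 1 or 2, or Dp16 tofacitinib 4. For 5xFAD-Dp16 against wild-type under sham 1 became 2 with no filter. For 5xFAD-Dp16 against 5xFAD under sham 0 became 1 with DESeq2 or the length trend removed, and 2 with limma-voom, no filter or these groups alone. For Dp16 against wild-type under tofacitinib 0 became 1 with limma-voom or the length trend removed and 2 with no filter. For 5xFAD-Dp16 against wild-type under tofacitinib 0 became 1 with DESeq2, limma-voom, no filter, the length trend removed, or without wild-type sham 2 and 5xFAD tofacitinib 2. Without 1 library it ranged from 0 to 1, the 1 without 5xFAD tofacitinib 1 or 2. For 5xFAD-Dp16 against 5xFAD under tofacitinib 1 became 0 with the replicate block, these groups alone or without those 2 libraries, and ranged from 0 to 1 without 1 library. The replicate block changed no other count of members called. Same-numbered mice did not deviate together: 5 of 98 such pairs had a correlation over 0.1, the median was -0.04, and 2 of 34 libraries correlated best with their own number.

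Over all genes, calls with the duplication numbered 374 and were 530 with DESeq2, 1163 with limma-voom, 672 with no filter, 209 with the replicate block, 651 without those 2 libraries and 771 with the length trend removed. With 5xFAD they numbered 76 and were 587, 460, 1358, 17, 98 and 356 in the same order. The share called higher with 5xFAD moved from 47.4% to 20.4% with DESeq2, 31.1% with no filter, 76.5% with the block and 18.8% with the length trend removed, and with the duplication from 54.8% to 66.0% with the block. Robust estimation of the spread was not used in 1 setting, chosen after seeing the data, which gave 378 and 74 calls. Bace2, with 28 to 163 counts, limits what can be said of its smaller differences.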
